A study of Mus musculus with 8 samples.

Results

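The comparison described here was the difference between the responses of Padi4-/- and wild-type (WT) mouse neutrophils to R848. For each gene it was the log2 fold change after R848 over no stimulation in Padi4-/- minus the same fold change in WT. All 8 libraries of the series entered it, 2 in each of 4 groups: unstimulated WT, WT with R848, unstimulated Padi4-/- and Padi4-/- with R848. A value below 0 means that a gene rose less, or fell more, in Padi4-/- than in WT, and a value above 0 the reverse.

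The neutrophils came from the bone marrow of 8-week-old female C57BL/6 mice and were isolated magnetically. The Padi4-/- mice lacked exon 1 of Padi4 in all cells. Cells were left unstimulated or were given R848 at 1 µg/ml for 6 h. The sample titles give 0 h for the unstimulated libraries, whereas the treatment protocol gives a 6 h incubation for both conditions. If the titles hold, a change after R848 also contains the change over 6 h of culture, and these cannot be told apart. Neither the labels nor the methods state that duplicates came from separate mice. The p-values below therefore measure the spread between these libraries, which may be technical.

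R848 (resiquimod) is a small synthetic ligand of the endosomal receptor TLR7. TLR7 signals through Myd88 and IRAK kinases to NF-kB and to the MAP kinases, which induce immediate early transcription factors of the AP-1 and Egr families first, and then cytokines, chemokines, receptors and feedback inhibitors. Padi4 encodes peptidylarginine deiminase 4 (PAD4), which converts arginine to citrulline in histones and other proteins and is abundant in neutrophils, where it takes part in the release of neutrophil extracellular traps.

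Padi4 had 590 and 527 counts in unstimulated WT libraries, 166 and 234 in WT after R848, 40 and 54 in unstimulated Padi4-/-, and 34 and 21 in Padi4-/- after R848. Both knockout groups lay below both WT groups, in the direction of the labels. Some counts remained in the knockout, and which exons they came from was not examined. Its own difference of response was 0.53 (SE 0.27, edgeR adjusted p = 0.379), which did not pass. Libraries held 562446 to 1177972 counts on genes, and all 4 Padi4-/- libraries were deeper than the 4 WT libraries, so that low levels were measured less precisely in WT. Of 12 neutrophil markers, 11 were in the table, whereas Ly6g was not analysed here. The 11 summed to 157750 and 151530 CPM (counts scaled to the library total) in unstimulated WT and 141470 and 127340 in WT after R848. In Padi4-/- they summed to 125320 and 123780 CPM unstimulated and 103290 and 102640 after R848. The sum was thus lower in every Padi4-/- library than in every WT library, and fell after R848 in both genotypes. Markers of other cells also moved with genotype or treatment. The 21 erythroid markers summed to 150 and 148 CPM in unstimulated WT, 32.8 and 23.9 in WT after R848, 1517 and 1507 in unstimulated Padi4-/-, and 1625 and 1689 in Padi4-/- after R848. The 6 hemoglobin genes among them were at 0 in every library. The 16 monocyte and macrophage markers summed to 1517 to 1648 CPM in unstimulated WT, 3457 to 3591 in WT after R848, 2184 to 2190 in unstimulated Padi4-/- and 3619 to 3683 in Padi4-/- after R848. This rise lay in Adgre1 and Csf1r. Without Adgre1 the other 14 of the 15 markers tested summed to 1477 to 1607, 1424 to 1600, 2140 to 2142 and 1908 to 1951 CPM in the same order, and without Csf1r as well to 1310 to 1481, 719.5 to 749, 1902 to 1933 and 873 to 894 CPM. The 16 stromal and endothelial markers summed to 702 to 795, 64.3 to 83.6, 1623 to 1822 and 174 to 181 CPM in the same order, and the 9 megakaryocyte and platelet markers to 96.0 to 133, 16.4 to 18.0, 209.6 to 229 and 45.0 to 52.0 CPM. In such bulk libraries, fewer cells of a type and less RNA per cell cannot be told apart. Duplicates of each group differed by more than counting noise, most between the pair of WT libraries given R848, whose chi-square was 1.67 times its degrees of freedom, compared with 1.05 to 1.16 times in the other groups.

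At a false discovery rate of 0.1 (edgeR quasi-likelihood F test, Benjamini-Hochberg adjustment), the genotypes differed in response for 577 of the 12254 genes tested (4.71%). Levels of genes are given as CPM scaled by the same factors as the test, the trimmed mean of M-values (TMM), so that ratios of levels match the fold changes. The difference was below 0 for 154 genes (1.26% of those tested) and above 0 for 423 (3.45%). That split depended on how libraries were scaled to each other. The TMM factors left the median difference of the 6912 genes with at least 10 counts on average at 0.18 rather than at 0. Relative log expression factors put this median at 0.02 and gave 233 genes below and 160 above 0. Library size alone put it at 0.11 and gave 170 and 255, and factors centred on the median gave 248 and 138. The majority direction therefore turned with the scaling over the same 12254 genes. TMM with only the 6912 genes with at least 10 counts, which changed the genes tested along with the factors, put the median at -0.11 and gave 460 and 116. DESeq2 called 90 genes below and 35 above 0.

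**Figure D1:**
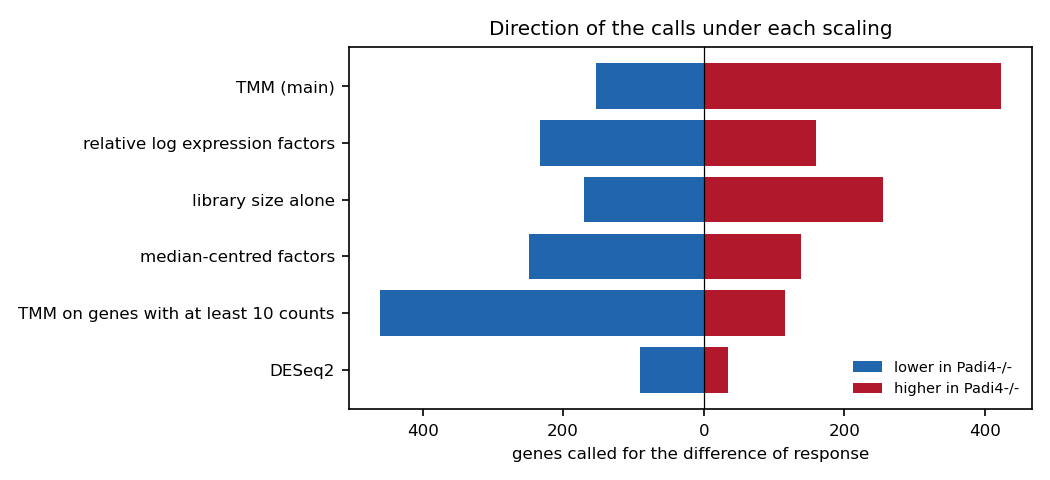
Number of genes called for the difference of response (false discovery rate below 0.1) under 5 edgeR scalings and with DESeq2, with bars to the left for genes lower in Padi4-/- and to the right for genes higher in Padi4-/-. Genes above 0 outnumber those below 0 with TMM (423 and 154) and with library size alone (255 and 170), whereas genes below 0 are the majority in the other 4 fits.

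Because of this, the description rests on the 249 genes that were called in the same direction under all 5 edgeR scalings, counting the one limited to 6912 genes, a set defined after the data were examined. Of these, 149 were below 0, or 2.16% of the 6912 genes that could qualify, and 100 were above 0, or 1.45%. Counts of called list members below are to be read beside these shares, and those under TMM beside 1.26% below and 3.45% above 0. Of the 249, only 118 were also called by DESeq2, which called 125 genes in all. With each of the 8 libraries left out in turn, 64 of the 149 and 18 of the 100 were still called under all 5 scalings every time, 82 genes in all, and these are called kept below. For single genes, the lost calls and ranges given below are under TMM alone, and under all 5 scalings a call can be lost more often. With 1 of the 8 libraries left out, Limk2, Rrm2 and Atpif1 were still called under all 5 scalings 1 time, and Irak2, Hsp90ab1 and Twf2 4 times. Of the 56 kept genes named by rule, 16 had a difference that moved by over 1.5 times under TMM with a library left out, always WT or Padi4-/- with R848. Gpi1, Abtb1, Pram1, Ucp2, Limd2, Znrf1 and Sla moved toward 0, to between 0.42 and 0.67. Ifitm2, Fth1, Atf4, Mcl1, Lilr4b, Lilrb4a, Clec4e, Cebpb and Actg1 moved away from 0, to between -1.43 and -0.68. These moves came without WT R848 replicate 1 for 8 genes, WT R848 replicate 2 for 9, Padi4-/- R848 replicate 1 for 4 and Padi4-/- R848 replicate 2 for 1. Without a single library the set held 96 to 176 genes below and 48 to 115 above 0. The lowest of these numbers came without unstimulated WT replicate 1 and without WT R848 replicate 1, respectively, and the number above 0 was also reduced to 63 and 66 without Padi4-/- R848 replicates 1 and 2.

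For reference, WT neutrophils raised 13.5% and lowered 16.0% of all genes tested after R848, and Padi4-/- neutrophils raised 19.2% and lowered 15.9%. Sorted by these responses, the 149 genes below 0 comprised 69 that rose in both genotypes, less so in Padi4-/-, 32 that rose in WT and were not called in Padi4-/-, and 14 that rose in WT and fell in Padi4-/-. A further 25 fell in Padi4-/- and were not called in WT, and 9 fell in both. Of the 100 genes above 0, 44 fell in WT and were not called in Padi4-/-, 18 fell in both, less so in Padi4-/-, 16 fell in WT and rose in Padi4-/-, 12 rose in Padi4-/- alone by the calls, and 10 rose in both. The most frequent form was thus a weaker rise in Padi4-/- below 0, and a fall in WT without a called response in Padi4-/- above 0.

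**Figure D2:**
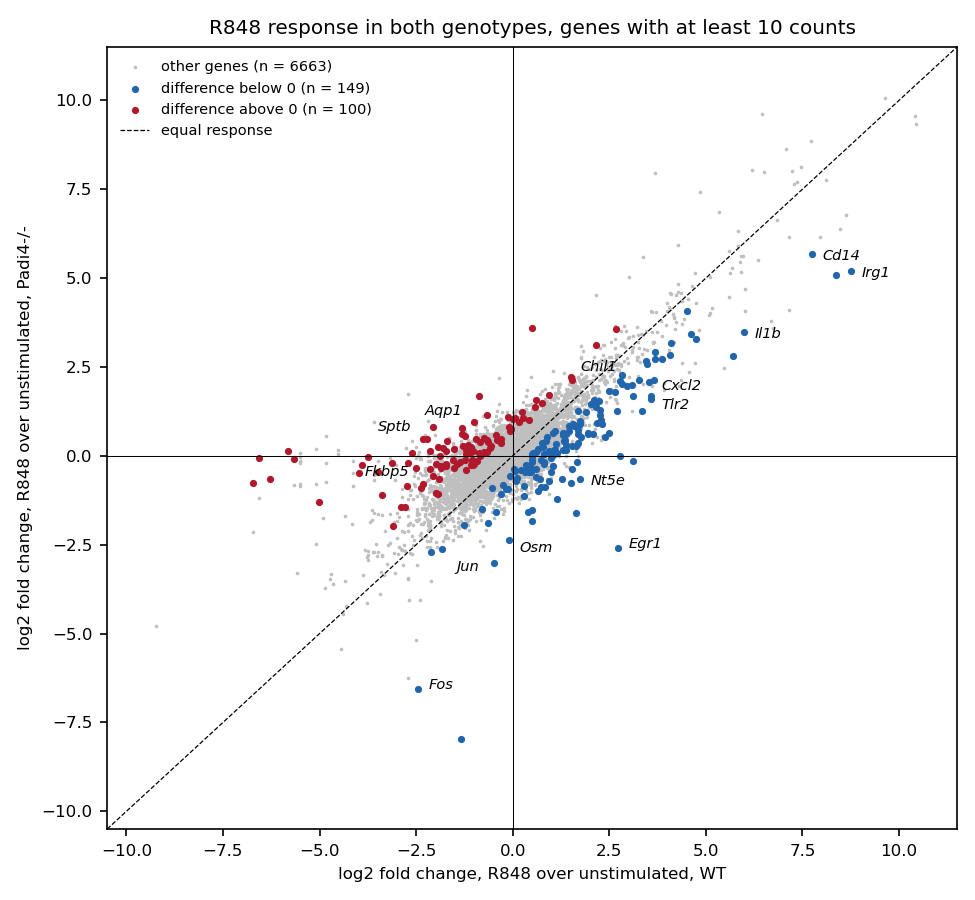
Log2 fold change after R848 in WT (x axis) and in Padi4-/- (y axis) for the 6912 genes with at least 10 counts on average, under TMM scaling. Blue points are the 149 genes with a difference below 0 and red points the 100 genes with a difference above 0 under all 5 scalings, and the dashed line marks equal responses. Egr1 and Nt5e lie right of and below 0, and Aqp1 and Sptb lie left of and above 0.

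The values in unstimulated cells took part in the difference. Among the 149 genes below 0, the median log2 ratio of Padi4-/- over WT was 0.32 without stimulation and -0.70 after R848, whereas over all genes with at least 10 counts it was -0.16 and -0.0019. Among the 100 genes above 0 the medians were -0.58 and 0.78. For 80 of the 149 genes the Padi4-/- value was above WT before and below WT after R848, and for 51 of the 100 it was below WT before and above WT after. The difference of response is made from these same ratios, so they describe its parts.

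The immediate early genes, which respond within minutes to receptor and stress signals without new protein synthesis, held the highest number of genes called below 0 of the 43 gene lists examined. Of 22 members with at least 10 counts, 10 were called below 0 and none above 0 under all 5 scalings, beside 2.16% and 1.45% of all genes that could qualify. Under TMM Gadd45b (1.03) was also called, above 0. The list's median difference was -0.71, beside 0.18 for all genes. Fos, Jun, Junb and Egr1, whose proteins form or accompany the AP-1 transcription factor, were among the 6 that were kept whichever library was left out.

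Fos was at 771 and 813 CPM in unstimulated WT libraries, 149 and 142 in WT after R848, 1505 and 1414 in unstimulated Padi4-/-, and 16.0 and 14.7 in Padi4-/- after R848. Fos was thus higher in Padi4-/- than in WT before stimulation and lower than in WT after it, and no groups overlapped. It fell in both genotypes, changing by -2.45 (SE 0.12) on the log2 scale in WT and -6.55 (SE 0.14) in Padi4-/-. The difference was -4.11 (SE 0.24, edgeR adjusted p = 6.47e-62), the smallest p of all genes. Fos lies at chromosome 12, 85473890 to 85477273 of GRCm38.

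Jun was at 142 and 147 CPM in unstimulated WT libraries, 108 and 99.1 in WT after R848, 346 and 353 in unstimulated Padi4-/-, and 42.6 and 44.1 in Padi4-/- after R848. The unstimulated Padi4-/- libraries were the highest and the stimulated ones the lowest, with no overlap between groups. Jun, the partner of Fos in AP-1, changed by -0.48 (SE 0.18) in WT and -3.01 (SE 0.14) in Padi4-/-, a difference of -2.52 (SE 0.25, edgeR adjusted p = 4.07e-21). The annotated antisense gene Junos overlaps Jun, and the library kit does not mark strand, so their reads could not be separated.

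Egr1 was at 27.8 and 19.0 CPM in unstimulated WT libraries, 175 and 143 in WT after R848, 37.3 and 30.5 in unstimulated Padi4-/-, and 6.22 and 4.60 in Padi4-/- after R848. Egr1, a zinc finger factor induced by the ERK cascade, was high only in the WT libraries given R848. The Padi4-/- libraries with R848 were lower than every other library. Its log2 fold change was 2.74 (SE 0.25) in WT and -2.58 (SE 0.37) in Padi4-/-, a difference of -5.32 (SE 0.44, edgeR adjusted p = 2.19e-29). The 2 Padi4-/- libraries given R848 held 7 and 5 counts of Egr1, beside 86 and 81 in the WT libraries given R848.

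Junb was at 345 and 354 CPM in unstimulated WT libraries, 519.7 and 689 in WT after R848, 478 and 507 in unstimulated Padi4-/-, and 443 and 403 in Padi4-/- after R848. WT libraries given R848 were the highest, and those of Padi4-/- given R848 were between the unstimulated groups. Junb, another AP-1 subunit, changed by 0.80 (SE 0.11) in WT and -0.22 (SE 0.09) in Padi4-/-, a difference of -1.02 (SE 0.14, edgeR adjusted p = 1.28e-10). Prdx2 overlaps Junb on the other strand. Of the 145 genes named by rule, 70 overlap another annotated gene, Il1b, Gpi1, Ucp2 and Sla among them, and how such reads were counted is not given in the sources used here.

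Dusp1, a phosphatase that switches off MAP kinases, fell more in Padi4-/- (-2.63) than in WT (-1.84), with a difference of -0.79 (SE 0.17). Zfp36 (tristetraprolin), which destabilizes cytokine mRNAs, had a difference of -0.58 (SE 0.11). Klf10, Fosl2, Btg2 and Fosb made up the 10. The difference was -1.07 for Klf10, -0.48 for Fosl2 and -0.42 for Btg2, whereas Fosb had 0 counts in both stimulated Padi4-/- libraries. Such genes, given here and below only to complete a count, were chosen after their values were seen. Fos, Jun, Dusp1 and Zfp36 fell in both genotypes, so a difference below 0 was a deeper fall for them, whereas for Junb and Egr1 it was a rise that turned into a fall.

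Promoter sequence was available from RefSeq for 16 of the 24 genes below 0 and 28 of the 34 above 0 that were named by smallest p or by opposite responses. The 250 bases before the start were searched on both strands for GGGNNNNNCC, a loose form of the NF-kB site, and were found to hold it in 10 of 16 and 21 of 28 genes, or 62.5% and 75.0%, beside 48.7% of 27025 genes with such a sequence. TGANTCA, the AP-1 site, was in 2 of 16 and 0 of 28 (7.82% of all), and GAAANNGAAA, the interferon response element, in 2 of 16 and 0 of 28 (3.46% of all). CACGTG was in 1 of each group (6.86% of all), and the CArG box, TGACGTCA and GCGTGGGCG were in none (1.62%, 1.77% and 0.622% of all). Overlapping matches were counted once per gene. The upstream sequences of Fos, Cxcl2 and Slfn4, below 0, and of Gpi1, above 0, are printed 5′ to 3′ because these genes stand for the immediate early, chemokine, opposite-direction and higher groups, with matches to any of the motifs in capitals. They are RefSeq sequences of build GRCm38.p6, at chr12:85473640-85473889, strand + for Fos, chr5:90903649-90903898, strand + for Cxcl2, chr11:83174936-83175185, strand + for Slfn4 and chr7:34230337-34230586, strand - for Gpi1.
Fos: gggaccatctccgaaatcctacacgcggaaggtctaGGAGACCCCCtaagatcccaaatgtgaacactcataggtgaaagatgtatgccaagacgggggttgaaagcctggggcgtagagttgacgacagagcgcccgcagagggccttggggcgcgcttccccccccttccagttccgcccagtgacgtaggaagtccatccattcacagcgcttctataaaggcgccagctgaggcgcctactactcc
Cxcl2: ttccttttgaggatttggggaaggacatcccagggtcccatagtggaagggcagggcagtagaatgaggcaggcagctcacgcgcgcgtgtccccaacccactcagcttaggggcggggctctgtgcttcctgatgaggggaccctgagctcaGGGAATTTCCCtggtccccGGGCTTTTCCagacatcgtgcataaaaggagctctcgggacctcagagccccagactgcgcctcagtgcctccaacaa
Slfn4: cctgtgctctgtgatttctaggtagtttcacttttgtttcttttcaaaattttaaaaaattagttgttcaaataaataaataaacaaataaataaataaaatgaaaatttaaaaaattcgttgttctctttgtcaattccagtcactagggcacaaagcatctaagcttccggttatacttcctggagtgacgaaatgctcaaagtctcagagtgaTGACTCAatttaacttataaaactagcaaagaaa
Gpi1: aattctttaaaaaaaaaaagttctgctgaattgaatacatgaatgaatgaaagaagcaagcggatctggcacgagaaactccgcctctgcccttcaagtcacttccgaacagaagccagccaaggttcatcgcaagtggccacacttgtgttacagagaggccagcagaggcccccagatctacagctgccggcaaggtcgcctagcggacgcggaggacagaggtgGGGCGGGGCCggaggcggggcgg
The capitals in Slfn4 mark TGANTCA, and those in Fos, Cxcl2 and Gpi1 mark GGGNNNNNCC, with 3 matches in Cxcl2, of which the first 2 overlap. A match describes the letters only.

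**Figure D3:**
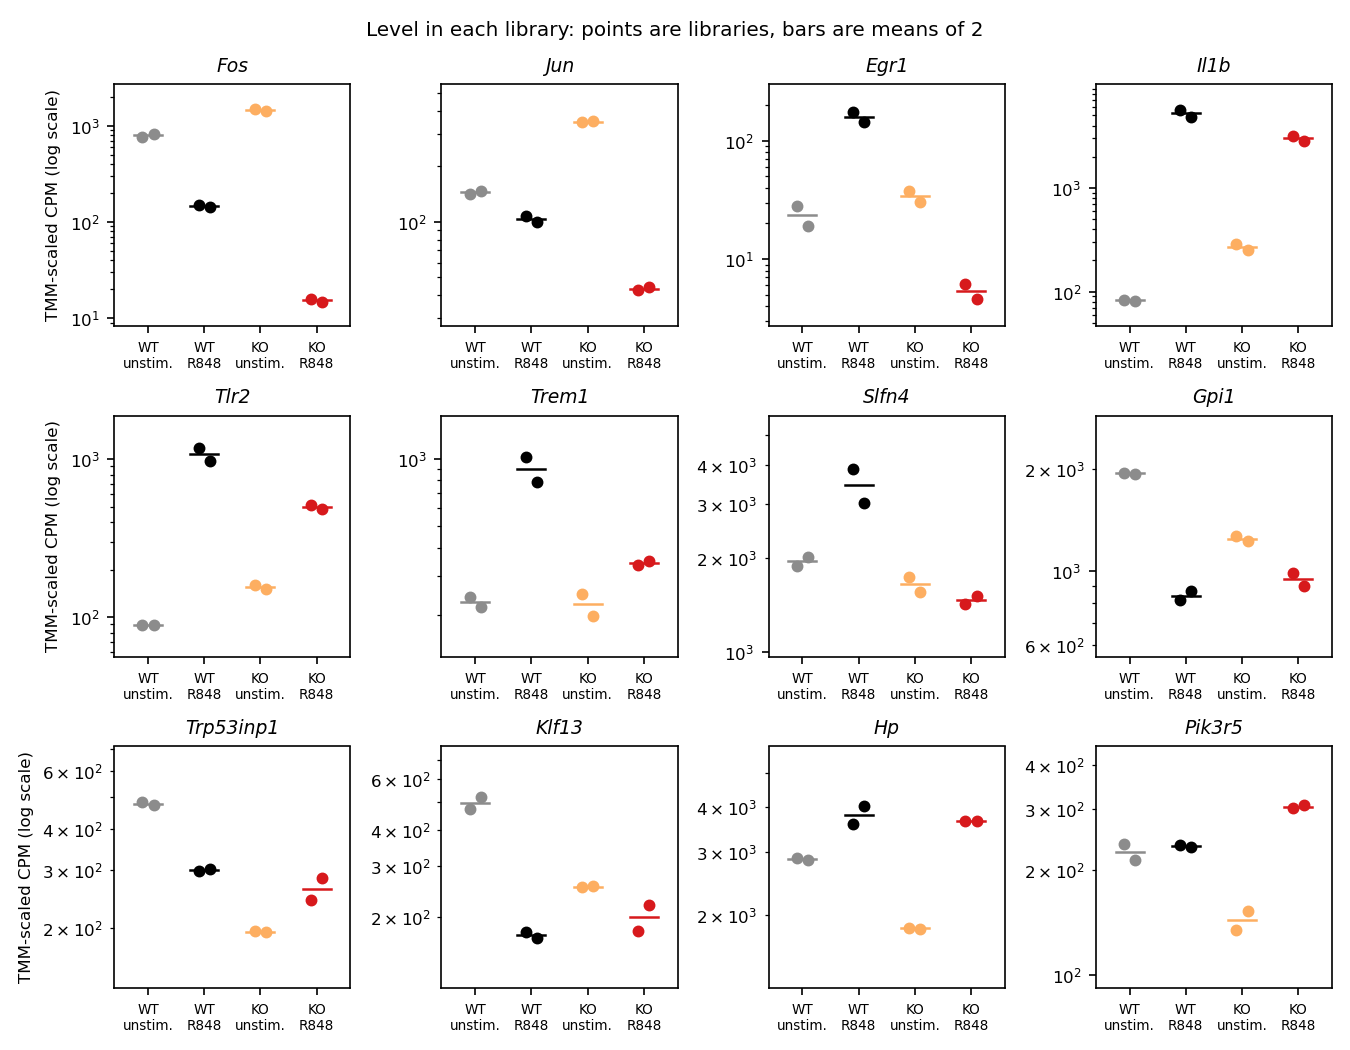
Level of 12 genes in each of the 8 libraries in TMM-scaled CPM, on log axes that differ between panels. Points are libraries, bars are means of 2, and KO stands for Padi4-/-. Fos, Jun and Il1b were higher in Padi4-/- than in WT without stimulation and lower after R848, whereas Gpi1, Trp53inp1 and Klf13 were lower in Padi4-/- without stimulation.

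Il1b, Irg1, Tlr2, Cd14 and Cxcl2, a cytokine, an enzyme, 2 receptors and a chemokine of the inflammatory response, rose in both genotypes and rose less in Padi4-/-. Il1b was at 83.5 and 81.1 CPM in unstimulated WT libraries, 5686 and 4821 in WT after R848, 286 and 255 in unstimulated Padi4-/-, and 3155 and 2855 in Padi4-/- after R848. Il1b encodes the inflammatory cytokine interleukin-1 beta. Its unstimulated level was higher in Padi4-/- than in WT and its level after R848 was lower, without overlap of any groups. The log2 fold change was 5.99 (SE 0.11) in WT and 3.48 (SE 0.08) in Padi4-/-, a difference of -2.51 (SE 0.15, edgeR adjusted p = 4.02e-57). It was the only one of 18 members of the IL-1 family and inflammasome list called for the difference under all scalings.

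Irg1 was at 6.18 and 6.91 CPM in unstimulated WT libraries, 3346 and 2456 in WT after R848, 39.6 and 37.0 in unstimulated Padi4-/-, and 1431 and 1392 in Padi4-/- after R848. Irg1 (Acod1), which makes the metabolite itaconate in activated myeloid cells, was also higher in Padi4-/- without stimulation and lower after it. Its fold changes were 8.76 (SE 0.17) in WT and 5.21 (SE 0.12) in Padi4-/-, with a difference of -3.55 (SE 0.37, edgeR adjusted p = 1.46e-16). Tlr2 was at 89.7 and 89.8 CPM in unstimulated WT libraries, 1176 and 977 in WT after R848, 161 and 152 in unstimulated Padi4-/-, and 516 and 481 in Padi4-/- after R848. The order of the groups for Tlr2, the receptor for bacterial lipoproteins, was the same as for Irg1 and the groups did not overlap. Tlr2 had a difference of -1.90 (SE 0.18, edgeR adjusted p = 4.18e-23).

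Cd14 was at 7.73 and 19.0 CPM in unstimulated WT libraries, 3092 and 2608 in WT after R848, 22.6 and 29.0 in unstimulated Padi4-/-, and 1409 and 1321 in Padi4-/- after R848. Cd14, the co-receptor that hands ligands to Toll-like receptors, rose in both genotypes, and its Padi4-/- libraries after R848 were below those of WT. The difference was -2.07 (SE 0.35, edgeR adjusted p = 3.88e-06). Tlr2 and Cd14 were the 2 members of the Toll-like receptor list kept with each library left out, of 4 called below 0 and none above 0 under all 5 scalings among 31 with at least 10 counts. The others were Irak2, a kinase of the Myd88 complex (-0.79), and Tlr4, the receptor for lipopolysaccharide (-1.16). Irak2 lost its call without unstimulated WT replicate 1 or unstimulated Padi4-/- replicate 1 and Tlr4 without unstimulated WT replicates 1 or 2, WT R848 replicate 1, unstimulated Padi4-/- replicate 1 or Padi4-/- R848 replicate 2, the differences staying between -1.15 and -0.59 and between -1.65 and -0.85. Tlr7, looked up because it is the receptor of R848, was not called for the difference (0.82, SE 0.41).

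Cxcl2 was at 47.9 and 65.6 CPM in unstimulated WT libraries, 809 and 554 in WT after R848, 67.8 and 49.3 in unstimulated Padi4-/-, and 184 and 164 in Padi4-/- after R848. Cxcl2, a chemokine that attracts neutrophils, overlapped between the genotypes without stimulation. After R848 both WT libraries were far above both Padi4-/- libraries, although the WT duplicates themselves lay apart. The difference was -1.97 (SE 0.24, edgeR adjusted p = 1.92e-13). Its upstream sequence, printed above, was the one of the 4 with more than 1 match to GGGNNNNNCC. Of 7 chemokine ligands with at least 10 counts it was the only one called below 0 under all scalings, and the list's median was 0.33. Ccl6, a chemokine that neutrophils make without stimulation, had 0.50, called under TMM only of the 5 scalings, and lay between 0.17 and 0.54 with the call lost without unstimulated WT replicate 2, WT R848 replicates 1 or 2, unstimulated Padi4-/- replicate 1 or Padi4-/- R848 replicates 1 or 2.

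Osm was at 158 and 174 CPM in unstimulated WT libraries, 159 and 152 in WT after R848, 244 and 253 in unstimulated Padi4-/-, and 39.1 and 57.9 in Padi4-/- after R848. In WT the values for oncostatin M, a cytokine of the IL-6 family, overlapped before and after R848, whereas the stimulated Padi4-/- libraries were below all others. Its difference was -2.27 (SE 0.23, edgeR adjusted p = 1.43e-20). Csf1, the macrophage growth factor, changed by 2.49 (SE 0.26) in WT and 0.64 (SE 0.31) in Padi4-/-, with a difference of -1.85 (SE 0.43). Of the receptors and signal regulators of cytokines, Il4ra had -0.72 (SE 0.18) and was kept with each library left out. Il10ra, the receptor for the inhibitory cytokine IL-10, had -1.13 (SE 0.29) and lost its call without unstimulated WT replicate 2. Socs3, the feedback inhibitor of STAT signalling, had -0.95 (SE 0.25) and lost its call without unstimulated WT replicate 2. The differences then lay between -1.44 and -0.95 for Il10ra and between -1.31 and -0.83 for Socs3 over all libraries left out. These were the 3 of 32 members of that list called under all 5 scalings. Csf3r, the receptor for the growth factor G-CSF, was called above 0 (0.33) under TMM and not under all 5 scalings. Csf3r lost this call without any 1 of the 8 libraries and lay between 0.03 and 0.33.

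Of 24 NF-kB subunits and inhibitors, 2 were called below 0 and none above 0 under all 5 scalings, and under TMM the calls were 2 and 3. Nfkbiz, a nuclear co-activator of secondary response genes, rose by 3.49 (SE 0.15) in WT and 2.58 (SE 0.12) in Padi4-/-, a difference of -0.90 (SE 0.23, edgeR adjusted p = 0.00611). Bcl3, another nuclear inhibitor-type protein, was called below 0 as well, between -1.29 and -0.90 over the libraries left out, with its call lost without unstimulated WT replicate 2. Nfkbia (IkBa), the feedback inhibitor, had 0.43 (SE 0.14) and Ikbkg had 0.75 (SE 0.24), both called above 0 under TMM and not under all 5 scalings. Nfkbia lost this call without any 1 of the 8 libraries and lay between 0.10 and 0.45, and Ikbkg lost it without unstimulated WT replicate 1, WT R848 replicates 1 or 2, unstimulated Padi4-/- replicate 2 or Padi4-/- R848 replicates 1 or 2 and lay between 0.29 and 1.07. The median of the 24 members was 0.02, or -0.16 relative to all genes. Of the 47 genes of the p38, JNK and ERK cascades, none was called below 0. Under TMM 4 were called above 0, of which Rps6ka1, an ERK-activated kinase described below, was the only one called under all 5 scalings. The list's median was 0.20, beside 0.18 for all genes.

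Of 27 transcription factors of granulopoiesis, 2 were called below 0, Ets2 and Cebpb, and 1 above 0, Klf13, described below, under all 5 scalings. Under TMM the calls were 2 and 2, and the list's median was 0.17, beside 0.18 for all genes. Ets2 had 3.53 (SE 0.14) in WT and 2.07 (SE 0.11) in Padi4-/-, a difference of -1.46 (SE 0.20, edgeR adjusted p = 2.25e-10). Cebpb was at 368 and 376 CPM in unstimulated WT libraries, 1092 and 1395 in WT after R848, 456 and 459 in unstimulated Padi4-/-, and 913 and 880.5 in Padi4-/- after R848. Both WT libraries with R848 were above both Padi4-/- libraries with R848, which in turn were above all unstimulated ones, and the difference was -0.77 (SE 0.13, edgeR adjusted p = 3.57e-07).

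The list of Atf4 and endoplasmic reticulum stress genes had 3 of 35 members called below 0 and none above 0 under all 5 scalings, and all 3 were kept with each library left out. Trib1 was at 88.1 and 86.3 CPM in unstimulated WT libraries, 477 and 400.1 in WT after R848, 72.4 and 83.5 in unstimulated Padi4-/-, and 142 and 152 in Padi4-/- after R848. Trib1, a pseudokinase that directs Cebpa to degradation, had no overlap between its WT and Padi4-/- libraries after R848. The difference was -1.43 (SE 0.22, edgeR adjusted p = 2.55e-08). Slc3a2, a subunit of amino acid transporters, had -1.23 (SE 0.26). Atf4, the transcription factor itself, had -0.67 (SE 0.18). The list's median was -0.16.

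Antioxidant genes, many of which are targets of the factor Nrf2, had 7 of 26 members called below 0 and none above 0 under all 5 scalings, beside 2.16% and 1.45% of all genes that could qualify. Under TMM the calls were 7 and 2, the latter being Gpx1 (0.54) and Prdx5 (0.33). Their median difference was -0.18. Gclm was at 32.5 and 25.9 CPM in unstimulated WT libraries, 377 and 372 in WT after R848, 57.7 and 74.0 in unstimulated Padi4-/-, and 289 and 308 in Padi4-/- after R848. Gclm, a subunit of the enzyme that makes glutathione, was higher in Padi4-/- without stimulation and lower after R848. It had a difference of -1.52 (SE 0.27, edgeR adjusted p = 5.74e-06). Prdx1, a peroxiredoxin, had -1.43 (SE 0.26) and Prdx6 had -0.86 (SE 0.19). Fth1 was at 959 and 1034 CPM in unstimulated WT libraries, 22726 and 22732 in WT after R848, 1149 and 1218 in unstimulated Padi4-/-, and 20065 and 19506 in Padi4-/- after R848. Ferritin heavy chain, which stores iron, had fold changes, in log2, of 4.51 in WT and 4.06 in Padi4-/-, and its difference of -0.45 (SE 0.09) was small next to either rise. Gclc, Blvrb and Srxn1, with differences of -2.07, -1.43 and -3.29, were the others. Gclm, Prdx1, Prdx6 and Fth1 were the 4 kept with each library left out.

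Interferon-stimulated genes had 6 of 46 members called below 0 and none above 0 under all 5 scalings, beside 2.16% and 1.45% of all genes that could qualify. Their median was -0.39, or -0.57 relative to all genes. Ifitm2, which blocks the entry of viruses, rose by 2.02 (SE 0.10) in WT and 1.46 (SE 0.08) in Padi4-/-, with a difference of -0.56 (SE 0.13, edgeR adjusted p = 0.0023), and was the one kept with each library left out. Rsad2 (viperin) had -0.67 (SE 0.19) and Ifi35 had -1.35 (SE 0.35). Rsad2 lost its call without unstimulated WT replicate 1 or unstimulated Padi4-/- replicate 2, and Ifi35 without unstimulated WT replicate 2, with differences between -1.13 and -0.38 and between -1.98 and -0.95 over the libraries left out. Zbp1, a sensor of nucleic acids, had -1.44 (SE 0.44), between -2.04 and -1.21 over the libraries left out, and lost its call without unstimulated WT replicate 1, unstimulated Padi4-/- replicate 1 or Padi4-/- R848 replicate 2. Eif2ak2, with -1.04, and Ifitm6, with -0.36, were the remaining ones.

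Of 19 C-type lectin and TREM receptors, 3 were called below 0 and none above 0 under all 5 scalings, beside 2.16% and 1.45% of all genes that could qualify. The list's median was -0.11. Clec4a2 (0.68) was called above 0 under TMM and not under all 5 scalings, with its call lost without unstimulated WT replicate 1, WT R848 replicates 1 or 2, unstimulated Padi4-/- replicate 2 or Padi4-/- R848 replicates 1 or 2 and a range between 0.39 and 0.80. Trem1 was at 243 and 218 CPM in unstimulated WT libraries, 1015 and 786 in WT after R848, 249 and 199.6 in unstimulated Padi4-/-, and 335 and 349 in Padi4-/- after R848. Trem1, a receptor that amplifies Toll-like receptor signals, overlapped between the genotypes without stimulation and not after it. The difference was -1.33 (SE 0.15, edgeR adjusted p = 3.06e-15). Clec4e (Mincle), a receptor for mycobacterial glycolipid, had -0.69 (SE 0.14), as a weaker rise. Clec7a (dectin-1), the beta-glucan receptor, rose in neither genotype (-0.29 in WT and -1.06 in Padi4-/-) and had -0.77 (SE 0.23), with its call lost without unstimulated WT replicate 1 or unstimulated Padi4-/- replicate 1, where its range was between -1.17 and -0.66. The inhibitory receptors Lilr4b and Lilrb4a had -0.92 (SE 0.13) and -0.77 (SE 0.12). These are near-identical paralogs, so reads may have been divided between them.

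Hdc was at 764 and 758 CPM in unstimulated WT libraries, 1926 and 1832 in WT after R848, 624 and 639 in unstimulated Padi4-/-, and 743 and 680.1 in Padi4-/- after R848. Hdc, the enzyme that makes histamine, was highest in WT after R848, and every Padi4-/- library was below the unstimulated WT libraries. It rose by 1.30 (SE 0.08) in WT and by 0.17 (SE 0.08) in Padi4-/-. The difference was -1.13 (SE 0.11, edgeR adjusted p = 7.40e-20). Srgn was at 462 and 423 CPM in unstimulated WT libraries, 1512 and 1370.4 in WT after R848, 409 and 388 in unstimulated Padi4-/-, and 621 and 589 in Padi4-/- after R848. Serglycin, the proteoglycan that packs granule proteins, rose in both genotypes and by less in Padi4-/-, a difference of -1.09 (SE 0.13, edgeR adjusted p = 6.65e-15). It stood in the azurophil granule list with Ctsc (-0.90), Prtn3 (-0.68) and Mpo (-0.60), which made 4 of 9 members called below 0 under all 5 scalings, beside 2.16% of all genes that could qualify. Ctsc rose in WT, whereas Prtn3 and Mpo, a protease and the myeloperoxidase of immature granulocytes, fell in both genotypes and by more in Padi4-/-. The calls of all 3 were lost without any 1 of the 4 unstimulated libraries, and those of Prtn3 and Mpo also without WT R848 replicate 2 or Padi4-/- R848 replicate 1, Mpo staying between -1.04 and -0.54, Prtn3 between -1.20 and -0.65 and Ctsc between -1.29 and -0.80. Mcl1, which keeps neutrophils alive, had -0.54 (SE 0.11, edgeR adjusted p = 3.06e-04), the only one of 24 survival and death genes called below 0 under all scalings. Slc16a3, the lactate exporter, had -0.97 (SE 0.14, edgeR adjusted p = 4.97e-10).

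Of 62 genes of the actin cytoskeleton and motility, 2 were called below 0 and 2 above 0 under all 5 scalings, and the list's median was 0.16. Actg1, cytoplasmic actin, had -0.45 (SE 0.10, edgeR adjusted p = 6.44e-04) and was kept. Plek (pleckstrin) rose in both genotypes and had -0.69 (SE 0.14), between -1.20 and -0.63 over the libraries left out, and was not kept. Twf2, an actin monomer-binding protein, had 0.76 (SE 0.17), and the kinase Limk2, which acts on cofilin, had 0.99 (SE 0.25). Twf2 lost its call without WT R848 replicate 1 or Padi4-/- R848 replicate 2 and lay between 0.25 and 0.86, and Limk2 lost it without WT R848 replicates 1 or 2 or Padi4-/- R848 replicates 1 or 2 and lay between 0.71 and 1.08. Under TMM the list had 2 calls below 0 and 7 above 0.

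Other genes called below 0 that were kept whichever library was left out, each the leading member of its list, were Cyp51, an enzyme of cholesterol synthesis with 1 and 2 counts in the unstimulated WT libraries (-2.90), Rapgef1, an exchange factor that activates integrins (-0.91), and Tnfaip2, a TNF-induced gene (-0.68). Rapgef1 was the 1 of 34 adhesion genes called under all scalings, the list's median being 0.19. The 4 adhesion genes called above 0 under TMM and not under all 5 scalings were the integrin subunits Itgal (0.36) and Itgb2 (0.37), the selectin ligand Selplg (0.49) and Parvg, a parvin (0.59). Itgb2, Selplg and Parvg each lost the call without any 1 of the 4 libraries given R848, and lay between 0.08 and 0.40, between 0.14 and 0.53 and between 0.24 and 0.61. The TNF superfamily list also held Ltb, lymphotoxin beta, called above 0 (0.98), whose call was lost without WT R848 replicate 1 or unstimulated Padi4-/- replicate 2 and whose difference stayed between 0.49 and 1.22.

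The set called under all 5 scalings held fewer genes above 0 (100) than below 0 (149). The 15 with the smallest p were Gpi1, Trp53inp1, Klf13, Abtb1, Asxl1, Pram1, Ucp2, Hp, Fkbp5, Pnpla2, Limd2, Znrf1, Chil1, Pik3r5 and Sla, all called under the 5 scalings, and 13 of them were kept whichever library was left out. The exceptions were the granule genes Hp and Chil1.

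Gpi1 was at 1957 and 1944 CPM in unstimulated WT libraries, 817 and 869 in WT after R848, 1265 and 1226 in unstimulated Padi4-/-, and 983 and 902 in Padi4-/- after R848. Gpi1, the second enzyme of glycolysis, fell in both genotypes, from a higher start in WT to a slightly lower end, without overlap of groups. It had log2 fold changes of -1.21 (SE 0.08) in WT and -0.40 (SE 0.07) in Padi4-/- and a difference of 0.81 (SE 0.11, edgeR adjusted p = 1.28e-10). Of 40 genes of glycolysis, the pentose phosphate path and hypoxia, Gpi1 and Ndrg1 (1.47) were called above 0 and Slc16a3 and Hif1a (-0.81) below 0 under all scalings, and the call of Ndrg1 was lost without WT R848 replicates 1 or 2 or Padi4-/- R848 replicate 1, where its range was between 1.07 and 1.65. Under TMM 9 of the 43 genes of the list that were tested were called above and 3 below 0, beside 3.45% and 1.26% of all genes tested, and the list's median was 0.16.

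Klf13 was at 475 and 519.7 CPM in unstimulated WT libraries, 177 and 170.0 in WT after R848, 254 and 255 in unstimulated Padi4-/-, and 179 and 221 in Padi4-/- after R848. Klf13, a Krüppel-like repressor, had its highest level in unstimulated WT, and after R848 the genotypes lay close together without overlap. Its difference was 1.16 (SE 0.17, edgeR adjusted p = 5.61e-09). Fkbp5 was at 374 and 406 CPM in unstimulated WT libraries, 75.4 and 79.7 in WT after R848, 104 and 95.1 in unstimulated Padi4-/-, and 54.2 and 58.8 in Padi4-/- after R848. Fkbp5, a co-chaperone of the glucocorticoid receptor and one of its target genes, was lower in every Padi4-/- library than in unstimulated WT. It changed by -2.32 (SE 0.16) in WT and -0.80 (SE 0.17) in Padi4-/-, a difference of 1.52 (SE 0.25, edgeR adjusted p = 2.70e-07). With counts thinned to the smallest library its difference was 0.90 and the call was lost.

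The remaining members of this group that fell in WT did so from a higher unstimulated level than in Padi4-/-. The unstimulated Padi4-/- over WT log2 ratio was -0.88 for Abtb1, -0.80 for the chromatin regulator Asxl1, -1.04 for the adaptor Pram1, -0.55 for the mitochondrial carrier Ucp2, -0.86 for the lipase Pnpla2 and -1.10 for the adaptor Sla. After R848 the same ratio was 0.23, 0.43, -0.18, 0.21, 0.69 and -0.28. Their differences of response were 1.12, 1.22, 0.86, 0.76, 1.56 and 0.82.

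Another form was a rise in Padi4-/- to the level that WT held throughout. Znrf1 was at 275 and 311 CPM in unstimulated WT libraries, 318 and 274 in WT after R848, 121 and 146 in unstimulated Padi4-/-, and 274 and 280.3 in Padi4-/- after R848. Znrf1, a ubiquitin ligase, was lower in the unstimulated Padi4-/- libraries than in the other 6, among which the groups overlapped. It changed by 0.01 (SE 0.13) in WT and 1.03 (SE 0.11) in Padi4-/-, a difference of 1.02 (SE 0.17, edgeR adjusted p = 9.25e-07). Limd2 had the same pattern, with -0.07 (SE 0.09) in WT, 0.69 (SE 0.09) in Padi4-/- and a difference of 0.76 (SE 0.13), which was 0.39 without a call in thinned counts.

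Pik3r5 was at 237 and 214 CPM in unstimulated WT libraries, 236 and 232 in WT after R848, 135 and 152 in unstimulated Padi4-/-, and 301 and 307 in Padi4-/- after R848. Pik3r5, the regulatory subunit of the phosphoinositide kinase that acts downstream of chemoattractant receptors, overlapped between the WT groups and rose in Padi4-/-, whose stimulated libraries were above all others. The difference was 1.02 (SE 0.18, edgeR adjusted p = 3.56e-06). Pik3cg, its catalytic partner, had 0.93 (SE 0.11) in WT, 1.70 (SE 0.10) in Padi4-/- and a difference of 0.77 (SE 0.15, edgeR adjusted p = 4.39e-05). The call of Pik3cg was lost without Padi4-/- R848 replicate 1, and its difference stayed between 0.50 and 0.83. With the phosphatase Ptprj (0.73), these were the 3 of 25 genes of the Fc receptor and kinase list called above 0 under all scalings, beside Lilr4b and Lilrb4a below 0, and under TMM 8 were called above 0 and 2 below 0.

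Hp was at 2889.5 and 2844 CPM in unstimulated WT libraries, 3587 and 4028 in WT after R848, 1834 and 1829 in unstimulated Padi4-/-, and 3652 and 3659.7 in Padi4-/- after R848. Haptoglobin, stored in specific granules, rose in both genotypes to overlapping levels, from a lower start in Padi4-/-. The difference was 0.59 (SE 0.09, edgeR adjusted p = 2.27e-07), and the call was lost without WT R848 replicate 1 or Padi4-/- R848 replicate 1, and its range was between 0.23 and 0.60. Chil1 was at 906 and 858 CPM in unstimulated WT libraries, 2621 and 2465 in WT after R848, 656 and 689 in unstimulated Padi4-/-, and 3044 and 2916 in Padi4-/- after R848. Chil1, a chitinase-like granule protein, ended higher in Padi4-/- than in WT, a difference of 0.62 (SE 0.11, edgeR adjusted p = 1.93e-06) that lost its call without Padi4-/- R848 replicate 1 and lay between 0.34 and 0.66. These were the 2 of 26 specific and gelatinase granule genes called under all scalings, beside 5 under TMM, all above 0, and the list's median of 0.15 was close to that of all genes.

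Cell cycle genes had the highest number of calls above 0 of any list. Under TMM 19 of 67 were called above 0 and 1 below 0, beside 3.45% and 1.26% of all genes tested. The median was 0.47, or 0.29 relative to all genes. Under all 5 scalings 5 were called above 0, Mcm6, Mcm4, Rrm2, Tk1 and Cdt1, all of DNA replication, and H2afz, a histone variant, was called below 0 (-0.48). Mcm6 was at 71.1 and 98.4 CPM in unstimulated WT libraries, 14.3 and 24.8 in WT after R848, 158 and 181 in unstimulated Padi4-/-, and 115 and 118 in Padi4-/- after R848. Mcm6, a subunit of the replicative helicase, was lowest in WT with R848 and highest in unstimulated Padi4-/-. It changed by -2.07 (SE 0.31) in WT and -0.56 (SE 0.13) in Padi4-/-, a difference of 1.51 (SE 0.34, edgeR adjusted p = 0.00126) whose call was lost without WT R848 replicate 1 and which stayed between 0.92 and 1.75. None of these 5 was kept with each library left out. The erythroid marker sum was 148 to 150 CPM in unstimulated WT and 23.9 to 32.8 CPM in WT after R848. In Padi4-/- it was 1507 to 1517 CPM unstimulated and 1625 to 1689 CPM after R848. The sum thus rose in Padi4-/- with R848, whereas Mcm6 fell there, and the part of erythroid cells in the result was not tested.

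The oxidative phosphorylation and cytosolic ribosomal protein lists each had 7 calls above 0 of 77 genes tested under TMM, beside 3.45% of all genes, and 2 under all 5 scalings. Cox6a1 (1.23) and Atpif1 (1.45) were called above 0 and Cycs, cytochrome c, below 0 (-1.34) under all 5 scalings of 74 oxidative phosphorylation genes, whose median was 0.28. Cox6a1 lost its call without unstimulated WT replicate 1, WT R848 replicate 1 or Padi4-/- R848 replicate 2, Atpif1 without unstimulated WT replicate 2, WT R848 replicates 1 or 2 or Padi4-/- R848 replicates 1 or 2 and Cycs without unstimulated WT replicate 1, with ranges between 0.77 and 1.41, between 0.97 and 1.63 and between -1.88 and -1.19. Among the cytosolic ribosomal protein genes, Rpl31 was called above 0 (1.18), with its call lost without WT R848 replicate 2 or Padi4-/- R848 replicate 1 and a range between 0.71 and 1.35. By contrast, the ribosome biogenesis list had a median of -0.59, with Ddx21, described below, and Dkc1 (-2.33) called below 0 under all 5 scalings of 28 genes. Dkc1 lost its call without unstimulated WT replicate 2, WT R848 replicate 2, unstimulated Padi4-/- replicate 2 or Padi4-/- R848 replicate 1 and lay between -3.39 and -1.78.

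**Figure D4:**
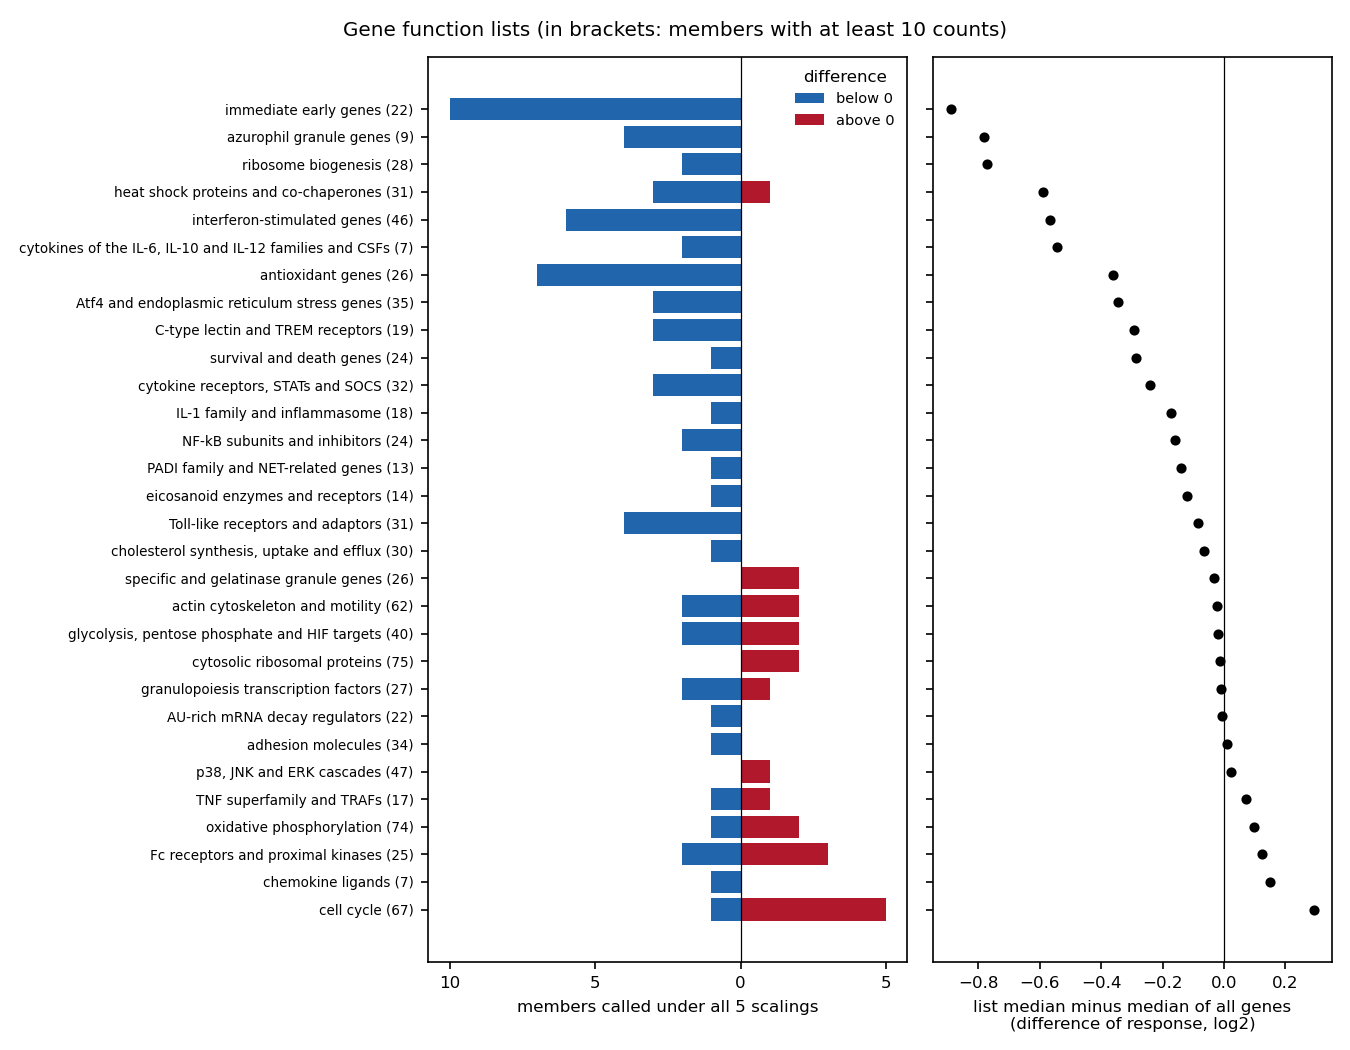
Left, number of members of each gene function list called for the difference of response under all 5 scalings, to the left for below 0 and to the right for above 0. Right, median difference of the members with at least 10 counts minus that of all genes (0.18). Only lists with at least 1 such call are drawn, from immediate early genes with 10 below 0 to cell cycle genes with 5 above 0.

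Genes that responded in opposite directions were those called for the difference and for both responses, with different signs. There were 15 that rose in WT and fell in Padi4-/- and 29 that fell in WT and rose in Padi4-/- under TMM. With relative log expression factors these numbers were 25 and 13, with library size alone 19 and 12, with median-centred factors 27 and 8, with TMM on genes with at least 10 counts 49 and 7, and with DESeq2 5 and 1. A gene near 0 in one genotype can change sign with the scaling. Of the genes with at least 10 counts, all 3 calls held under all 5 scalings for 7 of 14 that rose in WT and fell in Padi4-/- and for 1 of 28 in the other direction. With both responses also over 2-fold, 3 and 1 genes remained under TMM.

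The 7 were Egr1, Lmnb1, Slfn4, Sepn1, Junb, Nt5e and Ddx21, and each was also kept for the difference whichever library was left out. Lmnb1 was at 238 and 229.6 CPM in unstimulated WT libraries, 477 and 312 in WT after R848, 352 and 359 in unstimulated Padi4-/-, and 191 and 197 in Padi4-/- after R848. Lmnb1 encodes lamin B1 of the nuclear envelope. The WT libraries with R848 overlapped the unstimulated Padi4-/- libraries and their duplicates lay apart, whereas both stimulated Padi4-/- libraries were the lowest of all. Its log2 fold changes were 0.74 (SE 0.12) in WT and -0.88 (SE 0.10) in Padi4-/- and ranged from 0.43 to 0.81 in WT and from -1.25 to -0.88 in Padi4-/- over the scalings. The difference was -1.61 (SE 0.16, edgeR adjusted p = 4.54e-20).

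Slfn4 was at 1886 and 2025 CPM in unstimulated WT libraries, 3878 and 3006 in WT after R848, 1746 and 1565 in unstimulated Padi4-/-, and 1429.5 and 1515 in Padi4-/- after R848. Slfn4, an interferon-inducible gene of the Schlafen family of myeloid cells, rose in WT by 0.81 (SE 0.07) and changed in Padi4-/- by -0.17 (SE 0.07). The stimulated and unstimulated Padi4-/- libraries lay close together, so the fall was small, and over the scalings it ranged from 0.50 to 0.88 in WT and from -0.54 to -0.17 in Padi4-/-. The difference was -0.98 (SE 0.10, edgeR adjusted p = 7.09e-20). The TGANTCA match printed above begins 34 bases before its start.

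Nt5e was at 38.7 and 29.4 CPM in unstimulated WT libraries, 110.1 and 120.4 in WT after R848, 35.0 and 33.4 in unstimulated Padi4-/-, and 22.2 and 21.1 in Padi4-/- after R848. Nt5e (CD73), the surface enzyme that makes adenosine, was high only in WT with R848, and the stimulated Padi4-/- libraries were below all others. It changed by 1.75 (SE 0.25) in WT and -0.65 (SE 0.27) in Padi4-/-, a difference of -2.40 (SE 0.37, edgeR adjusted p = 2.55e-08). Sepn1 was at 152 and 150.2 CPM in unstimulated WT libraries, 302 and 182 in WT after R848, 121 and 110.3 in unstimulated Padi4-/-, and 48.9 and 66.2 in Padi4-/- after R848. Sepn1 (Selenon), a selenoprotein of the endoplasmic reticulum, had its stimulated Padi4-/- libraries lowest, and its WT duplicates after R848 lay apart. The difference was -1.66 (SE 0.22, edgeR adjusted p = 7.36e-11).

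Ddx21 was at 18.6 and 19.0 CPM in unstimulated WT libraries, 61.1 and 24.8 in WT after R848, 80.3 and 80.5 in unstimulated Padi4-/-, and 27.5 and 42.3 in Padi4-/- after R848. Ddx21, an RNA helicase of the nucleolus, had an unequal WT pair after R848, 1 library of which was below and 1 above the stimulated Padi4-/- libraries. Its unstimulated level was higher in Padi4-/- by a log2 ratio of 2.09, and its difference of response was -2.35 (SE 0.41, edgeR adjusted p = 3.56e-06). Over the libraries left out the difference stayed between -3.13 and -1.88.

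A further 7 genes rose in WT and fell in Padi4-/- by sign under all 5 scalings, with all 3 calls under 4 of them. Hspa8, a constitutive heat shock protein, had 0.38 (SE 0.10) in WT and -0.35 (SE 0.08) in Padi4-/-, and its WT rise ranged from 0.07 to 0.45. Eif3a, a subunit of a translation initiation factor, had 0.60 (SE 0.20) and -0.58 (SE 0.15). Both kept the call for the difference whichever library was left out, with -0.72 and -1.18, as did Ssr2, of the translocon of the endoplasmic reticulum, with -1.47. Clint1 (-0.59), Hdgf (-0.77), Cct5 (-0.85) and Mplkip (-2.27) lost it without unstimulated WT replicate 1, WT R848 replicate 1 or unstimulated Padi4-/- replicate 2 for Clint1, unstimulated WT replicate 1 for Hdgf, unstimulated WT replicate 2 or WT R848 replicate 1 for Cct5 and unstimulated WT replicate 1, WT R848 replicate 2, unstimulated Padi4-/- replicate 2 or Padi4-/- R848 replicate 2 for Mplkip. Their differences lay between -1.11 and -0.38, between -1.08 and -0.60, between -1.34 and -0.58 and between -2.91 and -1.78 in that order. The heat shock and co-chaperone list had a median of -0.41, with Hspa8, Cct5 and Hsp90ab1 called below 0 and Fkbp5 above 0 under all 5 scalings of 31 genes. Hsp90ab1 had -0.41 (SE 0.14), lost its call without unstimulated WT replicate 1 or unstimulated Padi4-/- replicate 2 and lay between -0.85 and -0.32.

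In the other direction, the one gene with all 3 calls under every scaling was Aqp1. Aqp1 was at 10.8 and 22.4 CPM in unstimulated WT libraries, 8.15 and 0 in WT after R848, 189 and 180.0 in unstimulated Padi4-/-, and 329 and 314 in Padi4-/- after R848. Aqp1, the water channel of red cells and endothelium, was near the counting limit in WT, with 0 counts in 1 WT library after R848, and high in every Padi4-/- library. Its log2 fold change was -2.06 (SE 0.67) in WT and 0.81 (SE 0.11) in Padi4-/-, a difference of 2.87 (SE 0.66, edgeR adjusted p = 0.00149). The call was lost without unstimulated WT replicate 2 or WT R848 replicate 2, and the difference stayed between 1.57 and 7.50. Sptb, spectrin of red cells (2.78), Abcb10, a mitochondrial transporter of heme-making cells (2.12), and Fech, the last enzyme of heme synthesis (2.69), which was chosen after its values were seen, had the same direction and the same contrast in level. The calls of Sptb and Abcb10 were lost without unstimulated WT replicate 2 or WT R848 replicate 2 for the former and WT R848 replicates 1 or 2 or Padi4-/- R848 replicate 2 for the latter, with ranges between 2.05 and 3.15 and between 1.73 and 2.26. The WT libraries given R848 held only 0 to 4 counts of each of these 4 genes, so the size of the fall in WT was poorly measured. The unstimulated Padi4-/- over WT log2 ratio was 3.48 for Aqp1, 3.21 for Sptb and 1.59 for Abcb10. Under TMM, 9 of the 15 erythroid markers tested were called above 0 and none below 0, beside 3.45% and 1.26% of all genes tested. Gata1 and Klf1, among the 9, were not called under all 5 scalings, and the hemoglobin genes were at 0. The part of red cell precursors in these results was not tested.

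Trp53inp1 was at 481 and 473 CPM in unstimulated WT libraries, 298 and 301 in WT after R848, 196 and 194 in unstimulated Padi4-/-, and 243 and 284 in Padi4-/- after R848. Trp53inp1, a p53 target that takes part in autophagy, fell in WT and rose in Padi4-/-, and the stimulated groups lay close together without overlap. Its log2 fold changes were -0.67 (SE 0.12) in WT and 0.44 (SE 0.11) in Padi4-/-, and over the scalings they ranged from -0.98 to -0.60 in WT and from 0.06 to 0.44 in Padi4-/-, so the sign held in all 5 and all 3 calls held in 4. The difference was 1.11 (SE 0.16, edgeR adjusted p = 1.90e-09), and it was kept whichever library was left out.

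Dok3, an adaptor that restrains receptor signalling, had -0.31 (SE 0.11) in WT and 0.47 (SE 0.09) in Padi4-/- with a difference of 0.78 (SE 0.14). Its call for the difference was lost without WT R848 replicate 1, and the difference stayed between 0.41 and 0.80. Mocs1, of molybdenum cofactor synthesis (1.03), Dlgap5, of the mitotic spindle (1.94), and Pck2, mitochondrial phosphoenolpyruvate carboxykinase (2.09), also held all 3 calls in 4 scalings. They lost the call for the difference without WT R848 replicate 1 for Mocs1, WT R848 replicate 2 for Dlgap5 and unstimulated WT replicate 1 or WT R848 replicate 1 for Pck2, with ranges between 0.61 and 1.15, between 1.31 and 2.22 and between 1.25 and 3.05. Ypel3, Nbr1, Rps6ka1, Rrm2, Cox6a1, Ndst1 and Tk2 held them in 1 to 3 scalings, with differences from 0.66 for Rps6ka1 to 1.40 for Tk2, and each lost the call for the difference without WT R848 replicate 1. The call was also lost without Padi4-/- R848 replicate 2 for Ypel3, without Padi4-/- R848 replicates 1 or 2 for Rps6ka1, and without WT R848 replicate 2 or Padi4-/- R848 replicate 1 for Rrm2, and Cox6a1 is given above. The differences lay between 0.40 and 0.88 for Ypel3, between 0.79 and 1.32 for Nbr1, between 0.32 and 0.74 for Rps6ka1, between 0.68 and 1.05 for Rrm2, between 0.35 and 0.87 for Ndst1 and between 0.95 and 1.47 for Tk2. Rps6ka1 and Ndst1 also changed sign in Padi4-/-, with fold changes down to -0.02 and -0.11.

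**Figure D5:**
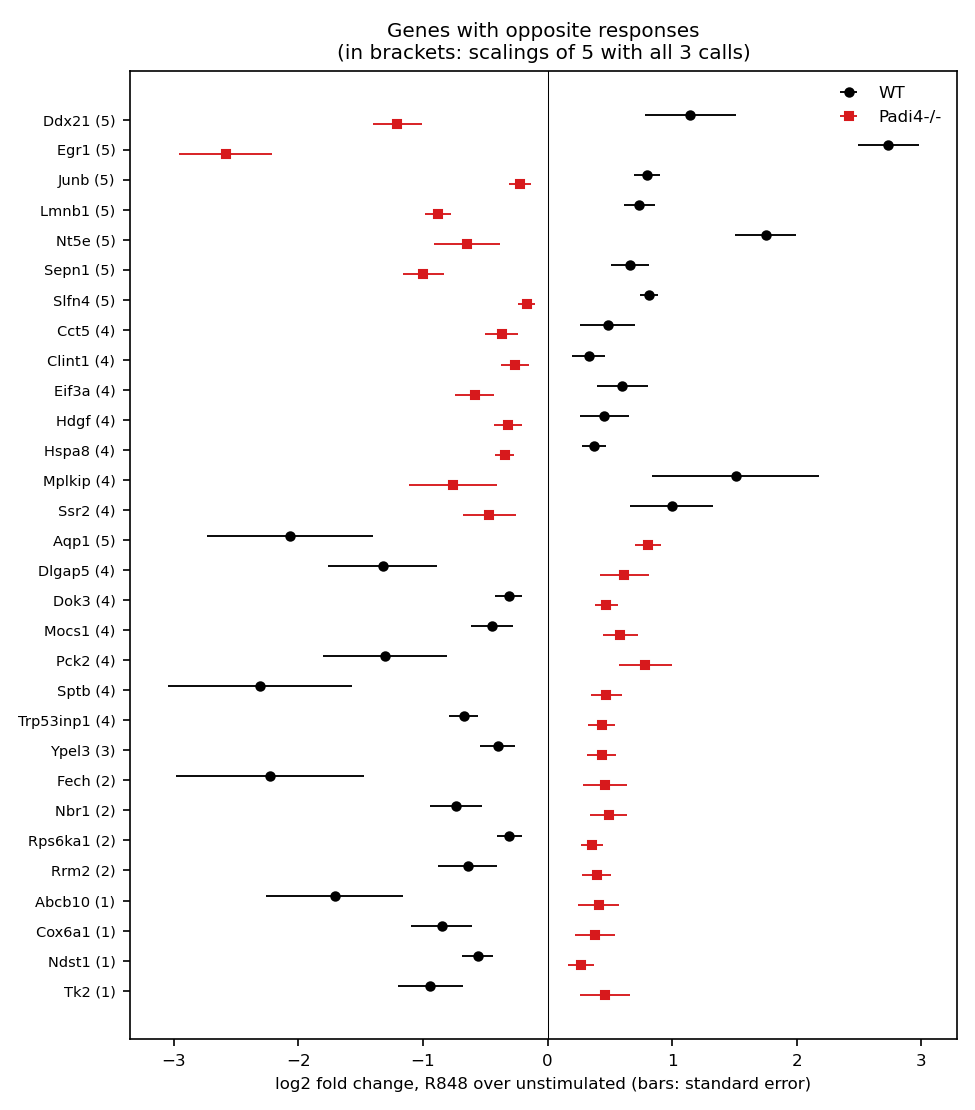
Log2 fold change after R848 in WT (black circles) and Padi4-/- (red squares) under TMM, with standard errors from the edgeR fit, for the 30 genes with opposite responses whose difference was called under all 5 scalings. The number in brackets is the number of scalings, of 5, in which the difference and both responses were called. The 14 genes at the top rose in WT and fell in Padi4-/-, from Ddx21 to Ssr2, and the 16 below fell in WT and rose in Padi4-/-, from Aqp1 to Tk2.

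Lists without any call under all 5 scalings included those of the proteasome, S100 proteins, protease inhibitors, MHC class I and class II presentation, the lysosome, NADPH oxidase, chemoattractant receptors, iron handling, chromatin modifying enzymes and splicing factors. Their medians were -0.02 for the 38 proteasome genes, 0.03 for 7 S100 genes, 0.22 for 70 chromatin genes, and 0.32 for 10 genes of the NADPH oxidase and its regulators. Of these, the oxidase subunits Ncf1 (0.51) and Cyba (0.52) and Dock2 (0.54), an exchange factor for Rac and not a subunit, were called above 0 under TMM and not under all 5 scalings. Ncf1 and Cyba lost this call without WT R848 replicate 1 or Padi4-/- R848 replicates 1 or 2 and Dock2 without WT R848 replicates 1 or 2 or Padi4-/- R848 replicates 1 or 2, and they lay between 0.20 and 0.53, between 0.12 and 0.59 and between 0.28 and 0.57 in that order. The proteasome, S100, protease inhibitor and MHC class II lists had 0 calls in edgeR under TMM as well, with 3 of their 70 genes tested at an unadjusted p below 0.05 and 0 called by DESeq2. Of the 249 genes called under all scalings, 90 were in any of the 43 lists.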

How the data were processed

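The deposited file held raw counts per gene for all 8 libraries, which the authors made from paired-end MiSeq reads of unstranded TruSeq RNA v2 libraries. The submitters' processing notes name FastQC 0.11.7, cutadapt 1.16, STAR 2.5.3a, HTSeq 0.6.1p1 and mm10, and the annotation and strand setting of counting are not given in the sources used here. Summary rows, 10.6% to 13.0% of each library's counts, were left out. Groups came from the sample labels. Genes with a count in at least 2 libraries were tested with edgeR 4.0.16 (R 4.3.3, limma 3.58.1; TMM, robust quasi-likelihood fit over the 4 groups, Benjamini-Hochberg adjustment over all genes tested, false discovery rate below 0.1). The biological coefficient of variation was 4.68%. Standard errors (SE) were derived from the F statistic, as the size of the log2 change over its root. Alternatives were DESeq2 1.42.0, other scalings, filters and thresholds, counts thinned to the smallest library, a replicate block, and each library left out. The code was tested on simulated counts.

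Genes were named by rule: the 15 smallest p in each direction, up to 20 genes with opposite responses in each direction, up to 4 called members of each of 43 gene lists (all with at least 10 counts on average), and Padi4. The gene lists, members and questions were chosen with earlier results of these data known. Gene positions came from the GRCm38 annotation, and promoters from RefSeq. Whether replicate numbers pair the samples is not given in the labels. Deviations of same-numbered libraries correlated at -0.0098 to 0.035. This cannot decide the question, because duplicates of most groups differed by little more than counting noise.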

Additional observations from a re-analysis of the deposited data

Results flagged for a closer look

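The 30 genes below stood out because WT and Padi4-/- neutrophils responded to R848 in opposite directions, each response and the difference itself being called, the latter under all 5 scalings. The difference was tested as the interaction of genotype and treatment. Of those that rose in WT and fell in Padi4-/-, the difference was -5.32 for Egr1, -2.40 for Nt5e, -2.35 for Ddx21, -2.27 for Mplkip, -1.66 for Sepn1, -1.61 for Lmnb1 and -1.47 for Ssr2. It was -1.18 for Eif3a, -1.02 for Junb, -0.98 for Slfn4, -0.85 for Cct5, -0.77 for Hdgf, -0.72 for Hspa8 and -0.59 for Clint1.

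Of those that fell in WT and rose in Padi4-/-, the difference was 2.87 for Aqp1, 2.78 for Sptb, 2.69 for Fech and 2.12 for Abcb10, with the erythroid marker sums given above. It was 2.09 for Pck2, 1.94 for Dlgap5, 1.40 for Tk2, 1.23 for Cox6a1, 1.23 for Nbr1 and 1.11 for Trp53inp1. It was 1.03 for Rrm2, 1.03 for Mocs1, 0.83 for Ypel3, 0.83 for Ndst1, 0.78 for Dok3 and 0.66 for Rps6ka1.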

How the results depend on the processing

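The number of genes called for the difference was 577, and it fell to 125 with DESeq2 (90 below and 35 above 0) and to 343 with counts thinned to the smallest library (295 and 48). The scalings moved the split to 233 and 160 with relative log expression factors, 170 and 255 with library size alone, 248 and 138 with median-centred factors, and, with both the factors and the genes tested limited to genes of at least 10 counts, to 460 and 116. Genes up in WT and down in Padi4-/- numbered 15, against 5 with DESeq2, 25 with relative log expression, 27 median-centred and 49 with the genes of at least 10 counts, 28 with thinned counts and 3 with a 2-fold minimum. Genes down in WT and up in Padi4-/- numbered 29, against 1 with DESeq2, 13, 12, 8 and 7 in the 4 scalings in the order given above, 3 with thinned counts and 1 with a 2-fold minimum. At a false discovery rate below 0.05, 395 genes were called (108 and 287), and 650, 554 and 566 with edgeR's own expression filter, without a filter and without the robust step. Of the named genes called under all scalings, Plek lost its call with that filter. Tlr4 and Mpo lost theirs without a filter and also without the robust step.

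Leaving out 1 library gave 268 to 471 called genes, 98 to 350 below and 51 to 293 above 0, 10 to 32 up in WT and down in Padi4-/-, and 3 to 24 the reverse. The total was 332 without unstimulated WT replicate 1, 297 without WT R848 replicate 1, and 295 and 268 without Padi4-/- R848 replicates 1 and 2. Of genes called under all 5 scalings, a set chosen after seeing the data, 96 to 176 were below 0, 48 to 115 above 0, 10 to 27 up in WT and down in Padi4-/- and 3 to 16 the reverse. Of the 104 named genes called under all scalings, 81 kept the call with thinned counts, and 64 of the 86 to which DESeq2 gave an adjusted p kept it there, none with a changed sign. With DESeq2 the genes described above that lost it were Clint1, Cct5, Ndst1, Rps6ka1, Mocs1, Ypel3, Cox6a1, Rrm2, Sptb, Irak2, Ltb, Rsad2, Ctsc, Prtn3, Mpo, Hsp90ab1, Clec7a, Plek, Twf2 and Limk2. Among genes described above, those that lost it with thinned counts were Fkbp5, Limd2, Chil1, Rps6ka1, Nbr1, Mocs1, Ypel3, Cox6a1, Dlgap5, Rrm2, Pck2, Zbp1, Prtn3, Mpo, Rpl31, Atpif1, Ndrg1, Mcm6, Pik3cg, Clec7a, Twf2 and Limk2, and every Padi4-/- library was deeper than every WT library before thinning. Of all named genes, only Retnlg, not discussed above, changed sign with a library left out, ranging from -0.00029 without WT R848 replicate 2 to 0.32.

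Whether the replicate numbers pair the samples is not known. With the replicate block 575 genes were called (156 and 419), 15 and 30 of them with opposite responses, and the calls of Prtn3 and Mpo were lost. Shallow WT libraries limit what can be said of genes with few counts, and the cause of the other shifts was not tested.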
